A study of Bos taurus with 8 samples.

Results

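The genes described here are regulators of the actin cytoskeleton and of phagocytosis. They were taken by symbol from the deposited table: the actins ACTA1, ACTA2, ACTB, ACTG1 and ACTG2, the alpha-actinins, the actin-related proteins and Arp2/3 subunits, capping protein, cofilins, profilins, beta-thymosins, the WASP and WAVE family, ELMO and DOCK proteins, coronins, diaphanous formins, and CDC42 with its effectors. The rule took symbols alone and no measured value. It gave 75 genes with 203 probes, of 16966 gene symbols on the array. Of these 75 genes, 24 had a probe that could be compared between the groups, 8 lay in a readable part of the arrays but were too dim, and 43 lay in parts of the arrays that were dim on at least 1 array.

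Transcript levels were measured in whole blood of 5 female Holstein Friesian cows, clinically healthy and without mastitis, which had received a probiotic for 60 days before sampling. In the group called CPE, fresh blood stood with a phenolic extract of cowpea leaf at 10 µg/ml for 30 min (37 °C, 5% CO2), and in the group called CONTROL it was kept in the same way with no extract. RNA came from a kit that lyses red and white cells separately and includes a DNase step, had integrity numbers above 7, and was labelled from 0.5 µg with a single dye (Cy3). Each group had 4 arrays, and the series text says that the RNA hybridised was pooled within a group, so the arrays may be technical replicates and every p-value below measures the spread between arrays, not between cows. The CPE arrays were on slide 1 and the CONTROL arrays on slide 2, with different scans and grid versions, so slide, scan, grid and treatment cannot be told apart in any comparison below. Blood holds many cell types, and in such bulk samples fewer cells of a type and less RNA per cell cannot be told apart.

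Phagocytes take up particles by building a branched actin network under the membrane. Receptors signal to guanine nucleotide exchange factors, among them the pair of an ELMO and a DOCK protein, which load RAC with GTP. RAC and CDC42 then act through WAVE and WASP proteins to switch on the Arp2/3 complex, which starts new filaments on the sides of old ones. Profilin and beta-thymosins hold the pool of actin monomers, capping protein ends filament growth, and cofilin and coronins take old filaments apart, so that monomers return to the pool. In neutrophils and monocytes of blood the same machinery serves crawling and engulfment, and in lymphocytes and platelets it serves contact and shape change.

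Large connected areas of all 8 arrays were dim. A spot was called lit on an array when the 90th percentile of raw brightness over its 61 nearest spots was within 1.5 log2 units of the bright end of that array. Lit spots made up 43.15% to 50.2% of a CPE array and 31.9% to 40.8% of a CONTROL array, and 13028 of 43803 spots (29.7%) were lit on all 8. Of the 203 member probes, 55 were lit on all 8 arrays and 75 were lit on none. A probe was tested where it was lit and well above background on all 8 arrays, which held for 40 member probes. Levels below are log2 processed signal minus the 75th percentile of the array over the spots lit on all 8 arrays. A change is the CPE mean less the CONTROL mean, with n = 4 arrays per group unless stated. Its standard error (SE) is from a limma fit over all 7197 tested probes. A call is a Benjamini-Hochberg adjusted p below 0.05. Where a gene had several tested probes, the brightest stands for it and the others are given beside it.

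**Figure D1:**
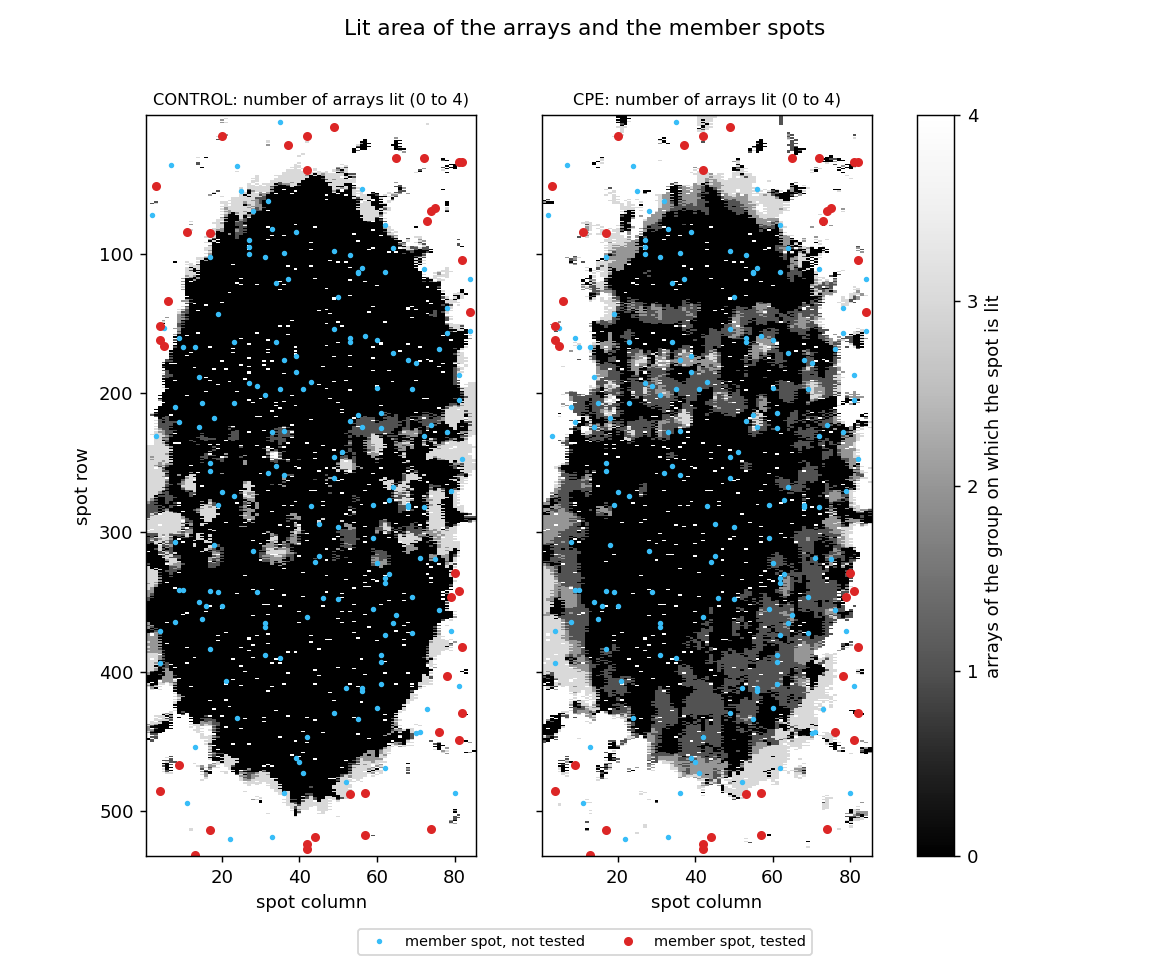
Spot rows and columns of the array, with the shade giving on how many of the 4 arrays of a group a spot was lit (black 0, white 4; the short white dashes inside the dark area are control spots). The tested member spots (red) lie along the edge of the array, while most untested member spots (blue) lie in the dark middle.

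Of the 24 tested member genes, 3 were higher in CPE (ACTR3, CORO1C and TMSB4) and 8 were lower (ELMO1, WASL, PFN1, ACTR1B, CORO7, PFN3, DOCK9 and ACTG1). Over all 4825 tested genes, 24.3% were called higher and 22.8% lower. The 11 called members are 45.8% of those tested, near the 47.1% called over all genes, so the number of calls says nothing particular about actin regulators. The groups of arrays did not overlap in 10 of 24 members, against 49.2% of all genes. At the level of probes, 9 of 40 were higher and 11 lower, against 48.4% of all probes called either way. The median change was −0.085 over the 24 members and 0.027 over all tested genes.

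The split of 3 higher to 8 lower moved with the scaling. It was 0 to 9 when arrays were scaled over probes well above background alone, where 19.4% of all tested genes were higher and 26.2% lower. It was 1 to 9 under quantile normalisation (22.9% and 22.9% of all genes), 0 to 5 with no scaling (3.96% and 11.2%), and 0 to 5 after normexp background correction (13.9% and 11.9%). With each spot centred on its neighbours it was 9 to 7, where 46.2% of all genes were higher and 25.6% lower, and with the mean of a gene's probes it was 5 to 7 (25.5% and 23.1%). In the signal before the scanner software's multiplicative detrending, a step it applied to CPE array 3 and to no other array, the split was 6 to 6, where 36.9% of all genes were higher and 18.8% lower. In the settings with 0 higher, an unadjusted limma p below 0.05 with a positive change was seen in 3 members (scaling over bright probes), 1 (no scaling) and 0 (normexp). Without CONTROL array 1, 2 or 3 no member was called higher (2 or 3 members at an unadjusted p below 0.05), where 19.4%, 19.1% and 19.9% of all genes were. Without CONTROL array 2 or 4 the lower calls numbered 5, where 19.1% and 20.4% of all genes were lower. ELMO1, WASL, PFN1 and CORO7 were called lower under each of the 24 or 25 alternatives at an adjusted p below 0.05 that gave them a value, and they were the 4 members below 0.01 with the reported settings. Against a minimum change of 0.5 log2 units (limma's treat), ELMO1 and WASL were called lower, and PFN1 (adjusted p = 0.155) and CORO7 (adjusted p = 0.347) were not.

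**Figure D2:**
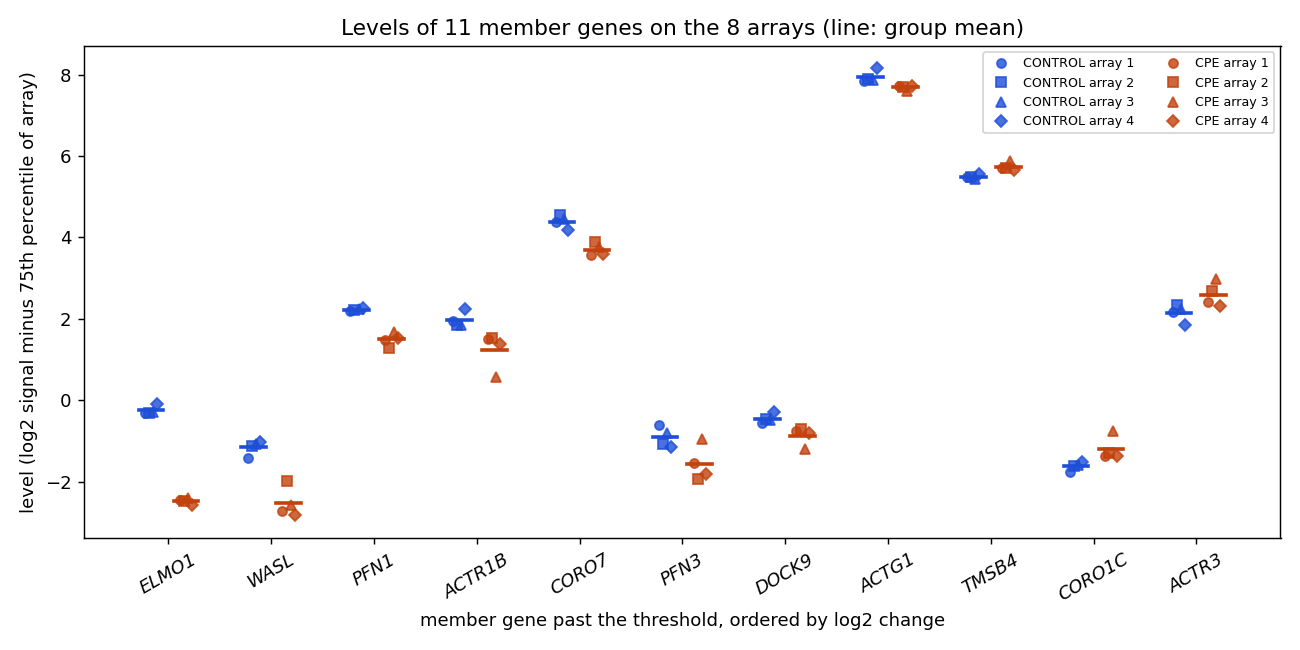
Levels of the 11 called member genes on each array (log2 signal minus the 75th percentile of the array's lit probes; blue CONTROL, orange CPE; lines are group means). ELMO1 and WASL show the widest gaps between groups, while the arrays of PFN3 and ACTR3 overlap.

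ELMO1 is the scaffold that binds a DOCK protein in the exchange factor for RAC during engulfment and cell migration. It had the largest change of the members. On the CPE arrays its level was −2.46, −2.47, −2.40 and −2.57, and on the CONTROL arrays −0.31, −0.31, −0.29 and −0.10. All CPE arrays lay far below all CONTROL arrays, and the arrays of a group lay close together. ELMO1 fell by 2.22 log2 units (SE 0.08, adjusted p = 1.53e-06), a 4.66-fold difference. Its spot lay in evenly bright surroundings, between percentiles 93.2 and 94.1 of local brightness on all 8 arrays, and before multiplicative detrending the change was −2.11. With normexp background correction it was −1.38 (adjusted p = 0.00159).

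The fall of ELMO1 rests on a single probe. The array carries 4 probes for the gene, of which these 3 are assigned to the same transcript (NM_001113227); they are shown, all 5′ to 3′ and in lower case, because they gave different readings.
ELMO1 probe A_73_P290101: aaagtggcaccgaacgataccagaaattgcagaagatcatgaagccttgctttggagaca
ELMO1 probe A_73_P403846: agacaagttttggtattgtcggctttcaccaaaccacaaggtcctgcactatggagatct
ELMO1 probe A_73_P088616: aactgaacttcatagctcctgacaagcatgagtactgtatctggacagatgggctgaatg
The first is the tested one. Probe A_73_P403846 was lit on all 8 arrays but well above background on 3 CPE arrays and on no CONTROL array, with processed signals of 62.8, 30.2, 77.05 and 41.55 intensity units in CPE and 35.3, 48.5, 35.8 and 20.03 in CONTROL, groups that overlap. Probe A_73_P088616 was lit on 4 CPE and 3 CONTROL arrays and was well above background on all 4 CPE arrays and no CONTROL array, with 71.6, 85.45, 58.1 and 37.5 units in CPE and 18.8, 10.15, 10.09 and 9.15 in CONTROL. Probe A_73_P088616 thus read higher on every CPE array than on any CONTROL array, the opposite direction to the tested probe. A_73_P088616 lay outside the common lit area, and the part of local brightness in that difference was not tested. The remaining ELMO1 probe was lit on no array.

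ELMO2, the close relative of ELMO1, showed a change of 0.03 (SE 0.09, adjusted p = 0.793), and its sign turned in 6 of 25 alternatives. ELMO3 had no lit probe. Of the DOCK exchange factors, DOCK9 acts on CDC42, as do DOCK10 and DOCK11. DOCK9 read −0.76, −0.72, −1.20 and −0.80 on the CPE arrays and −0.57, −0.45, −0.49 and −0.30 on the CONTROL arrays. The groups did not overlap, and CPE array 3 was the lowest. DOCK9 fell by 0.42 (SE 0.12, adjusted p = 0.0207), but was not called in 6 of 25 alternatives at the same threshold. The change was −0.21 (adjusted p = 0.0846) before multiplicative detrending, −0.058 (adjusted p = 0.422) with local centring, −0.23 (adjusted p = 0.0813) with normexp and −0.60 (adjusted p = 0.161) with no scaling. It was −0.42 (adjusted p = 0.0510) without CONTROL array 2 and −0.37 (adjusted p = 0.0503) without CONTROL array 4. DOCK10 (−0.01, adjusted p = 0.935) and DOCK11 (0.18, adjusted p = 0.157) were not called. DOCK1, the classical partner of ELMO1 in engulfment, and DOCK4, of the same RAC-directed branch, were lit but well above background on no array, and DOCK5 on 1 CPE array. DOCK6 and DOCK8 had no lit probe.

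WASL encodes N-WASP, which CDC42 opens so that it can switch on the Arp2/3 complex. Its level was −2.74, −1.99, −2.57 and −2.84 on the CPE arrays and −1.41, −1.13, −1.08 and −1.02 on the CONTROL arrays. The groups did not overlap, and CPE array 2 came closest to the CONTROL arrays. WASL fell by 1.37 (SE 0.18, adjusted p = 0.000447), a 2.58-fold difference, by 1.31 before multiplicative detrending, and by 0.70 (adjusted p = 0.0271) with normexp background correction. The probe is shown because the change rests on it.
WASL probe A_73_111626: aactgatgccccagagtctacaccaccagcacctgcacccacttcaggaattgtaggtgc
Another probe for the same transcript, A_73_P106286, lay outside the common lit area, being lit on 2 CPE arrays and no CONTROL array. It gave 122, 194, 190 and 105 units in CPE and 13.8, 22.0, 22.3 and 21.3 in CONTROL, the opposite direction, with local brightness at percentiles 42.8 to 69.8 in CPE and 22.1 to 37.9 in CONTROL. The part of local brightness in that difference was not tested.

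WASH1, named WASHC1 in RefSeq, encodes the core of the WASH complex, which builds actin on endosomes. Its probes changed by −0.08 (adjusted p = 0.585) and −0.26 (adjusted p = 0.109) and were not called. WASF1, WASF2 and WASF3, the WAVE proteins that relay RAC signals, had no probe lit on all 8 arrays. Of CDC42 and its 9 effectors and binding partners, CDC42SE1 alone could be tested. It read −0.63, −1.14, 0.47 and −0.93 in CPE and −1.17, −1.19, −1.08 and −3.23 in CONTROL. The lowest CPE arrays reached the highest CONTROL arrays, and CONTROL array 4 was far below the others. The change was 1.11 (SE 0.52, adjusted p = 0.11), and 0.59 without CONTROL array 4.

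The Arp2/3 complex had 4 tested genes of 10. ACTR3, the Arp3 subunit, read 2.40, 2.69, 2.97 and 2.33 on the CPE arrays and 2.17, 2.33, 2.23 and 1.84 on the CONTROL arrays. CPE array 4 and CONTROL array 2 overlapped. ACTR3 rose by 0.45 (SE 0.16, adjusted p = 0.0462), but was not called in 14 of 24 alternatives at the same threshold. The call was lost without CPE array 2 or 3 or any of the CONTROL arrays (changes of 0.33 to 0.51), the change was 0.25 with normexp and 0.13 with array weights, and over the whole array it was −0.67. ACTR2, the Arp2 subunit, had 2 tested probes that differed in direction, neither of them called. The brighter read 2.61, 2.88, 2.79 and 2.55 in CPE and 2.77, 2.84, 2.85 and 2.72 in CONTROL, a change of −0.09 (SE 0.09, adjusted p = 0.466). The dimmer read −0.24, −0.96, 0.06 and −0.26 in CPE and −0.25, −0.36, −0.29 and −0.93 in CONTROL, a change of 0.11 (SE 0.23, adjusted p = 0.715). In both probes the groups overlapped.

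ARPC1B, the subunit of the complex that prevails in blood cells, was not called at its brightest probe (0.26, SE 0.24, adjusted p = 0.397), but was higher at the other (0.59, SE 0.11, adjusted p = 0.00274). ARPC2, which holds the complex to the mother filament, was not called at its brightest probe either (0.18, SE 0.08, adjusted p = 0.102). The other ARPC2 probes share 50 bases and lie at different spots of the array. They are shown for that reason, with the shared run in capitals, 5′ to 3′.
ARPC2 probe A_73_P407816: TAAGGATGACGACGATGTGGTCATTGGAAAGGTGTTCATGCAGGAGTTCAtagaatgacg
ARPC2 probe A_73_P459401: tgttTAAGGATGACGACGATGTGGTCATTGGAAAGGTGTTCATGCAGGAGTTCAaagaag
Probe A_73_P407816 read 4.16, 4.02, 4.22 and 4.13 in CPE and 3.53, 3.53, 3.49 and 3.68 in CONTROL, a rise of 0.57 (SE 0.08, adjusted p = 0.000567). Probe A_73_P459401 read 4.04, 4.14, 3.24 and 4.06 in CPE and 3.45, 3.40, 3.45 and 3.41 in CONTROL, a change of 0.44 (SE 0.19, adjusted p = 0.0774). The probes differed by 0.98 on CPE array 3 and by at most 0.27 on each other array. Before multiplicative detrending their levels on CPE array 3 were 3.95 and 3.77, and the changes were 0.68 (SE 0.10, adjusted p = 0.000264) and 0.75 (SE 0.09, adjusted p = 3.66e-05), both higher in CPE. These sequences were chosen after their values had been seen, as were the others printed here.

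CPE array 3 is the array on which the software divided the signal by a fitted surface. Within the lit area, its log2 ratio of processed to background-subtracted signal ran from −1.74 at the 5th percentile to −0.083 at the 95th, a spread of 1.66 log2 units from place to place. The ACTR1B, DOCK9 and ACTN1 levels on CPE array 3 were the lowest of their group, and the CORO1C and ACTR3 levels the highest. In the signal before that step, ACTR1B, ACTN1 and DOCK9 on CPE array 3 lay between the other CPE arrays, while CORO1C (−1.43, others −1.83 to −1.62) and ACTR3 (2.272, others 1.87 to 2.269) were still highest there. With that signal ARPC2, CFL1 and DOCK11 were also called higher, and ACTG1 and DOCK9 were not called.

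**Figure D3:**
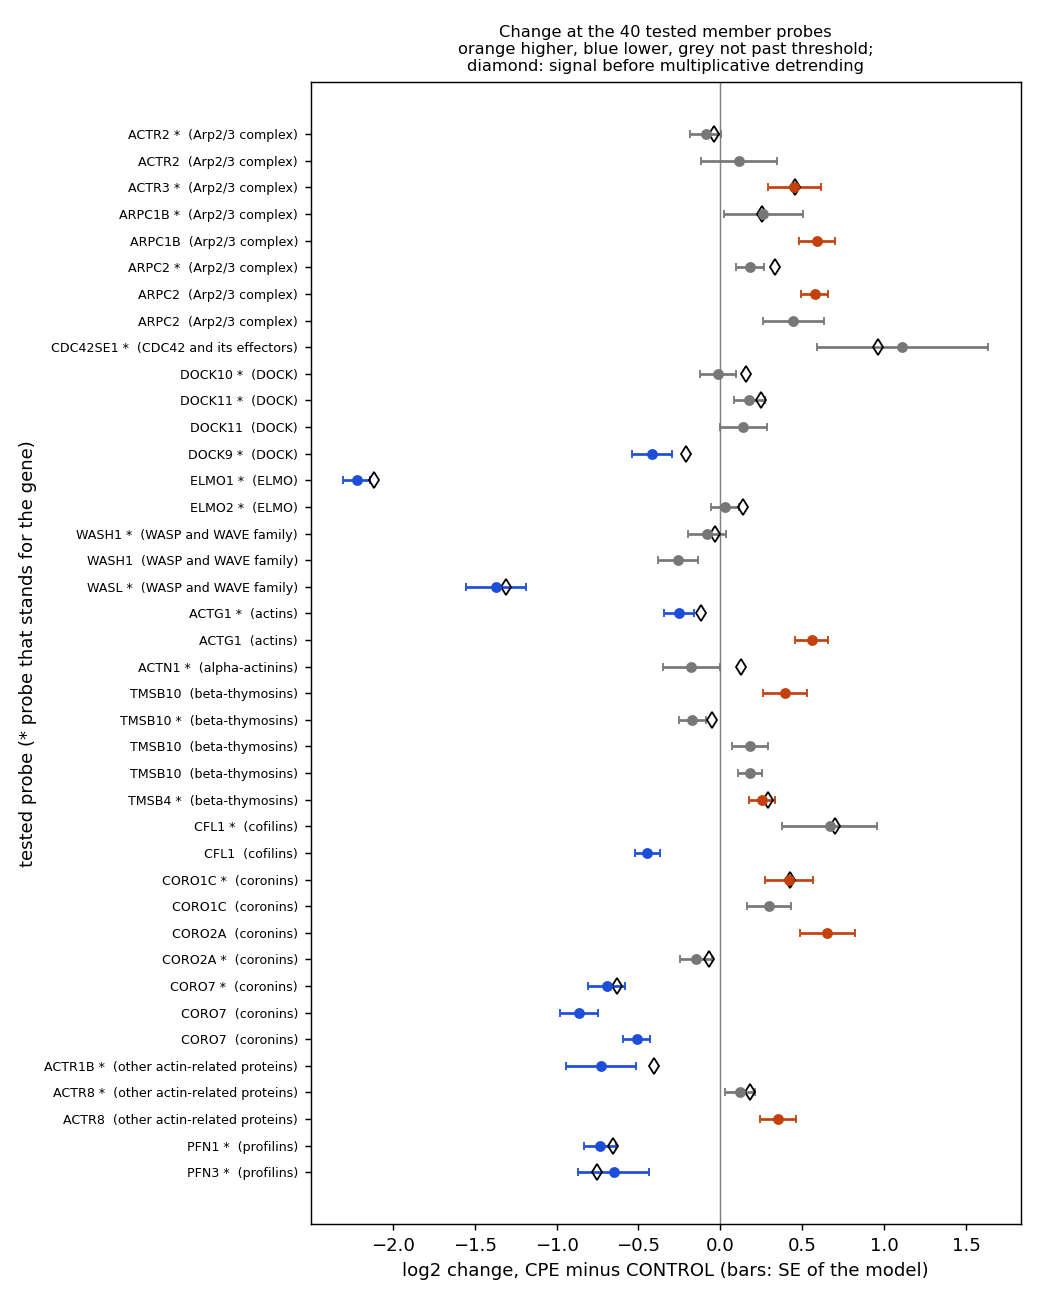
Log2 change, CPE minus CONTROL, at the 40 tested member probes grouped by role (bars are the SE of the fit, n = 4 arrays per group, 3 for the probe that stands for CORO2A; orange called higher, blue called lower). Diamonds give the same change before multiplicative detrending for the probe that stands for a gene (marked *). ACTN1 and DOCK10 cross 0 between both signals, and ELMO1 and WASL stay far to the left.

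ACTG1, cytoplasmic gamma-actin, was called in both directions. Its brighter probe read 7.73, 7.71, 7.61 and 7.72 on the CPE arrays and 7.85, 7.90, 7.86 and 8.16 on the CONTROL arrays, a fall by 0.25 (SE 0.09, adjusted p = 0.0488). That call was not made in 18 of 25 alternatives at the same threshold, including each of the 8 fits with an array left out (−0.28 to −0.18). Its dimmer probe read 7.13, 7.34, 7.38 and 7.07 in CPE and 6.75, 6.59, 6.78 and 6.57 in CONTROL, a rise of 0.56 (SE 0.10, adjusted p = 0.00215). In each probe the groups did not overlap, and the probes disagree, so these arrays give no direction for ACTG1. The mean of both probes changed by 0.15. The actin genes are nearly identical in their coding parts, so signal of one could come from another where a probe lies there, which was not tested.

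Local brightness is given beside the readings of actin probes outside the common lit area. The brighter lit ACTG1 probe (A_73_P048206) shares a run of 55 bases with a probe outside the common lit area (A_73_P467768), lit on 3 CPE arrays and no CONTROL array. Scaled over the whole array, the lit probe changed by −1.38 and its near copy by 1.87. The near copy gave 114376, 11600, 60126 and 80359 units in CPE and 33969, 767, 30396 and 3334 in CONTROL. Its local brightness was at percentiles 85.4, 29.7, 83.5 and 75.5 on the CPE arrays and 49.2, 36.5, 49.4 and 42.6 on the CONTROL arrays, and the arrays with the lowest local brightness in each group gave the lowest signals. The 4 unlit ACTG1 probes changed by 1.87 to 9.89 over the whole array. ACTB, cytoplasmic beta-actin, had 4 probes, none lit on any CONTROL array. The brightest ACTB probe gave 115351, 164219, 160156 and 97996 units in CPE and 4194, 3224, 1275 and 627 in CONTROL. Its local brightness was at percentiles 61.2, 74.1, 56.2 and 58.7 in CPE and 37.8, 40.2, 38.7 and 54.5 in CONTROL. Within CONTROL, array 4 had the highest local brightness and the lowest signal, and array 1 the lowest local brightness and the highest signal. The whole-array difference of this probe was 5.23, and the part of local brightness in that difference was not tested.

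**Figure D4:**
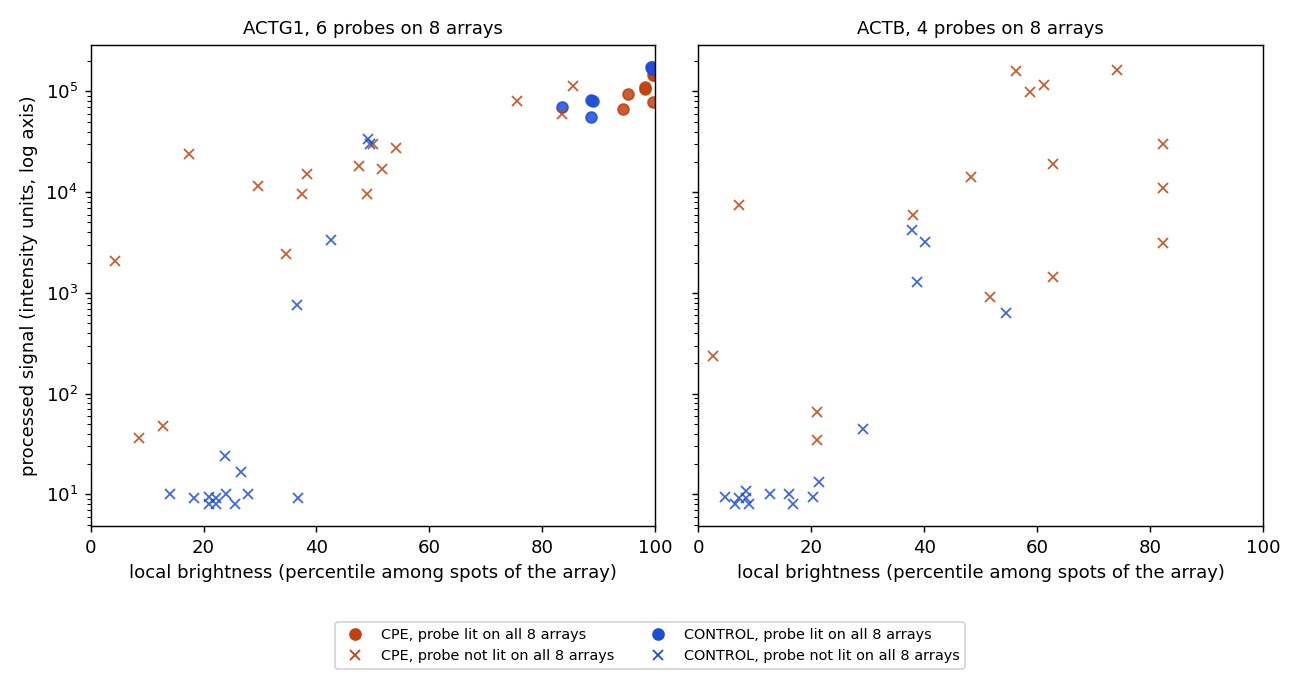
Processed signal (intensity units, log axis) of the 6 ACTG1 probes and the 4 ACTB probes on each array against local brightness (percentile of the array). The ACTG1 probes lit on all 8 arrays (filled) lie between percentiles 83.5 and 99.8. The CONTROL readings of all other probes (crosses) lie at percentile 54.5 or below, and many of them are near the bottom of the scale.

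Profilins bind actin monomers and hand them to growing filament ends. PFN1, the profilin of blood cells, read 1.49, 1.27, 1.68 and 1.54 on the CPE arrays and 2.20, 2.21, 2.23 and 2.27 on the CONTROL arrays. Every CPE array was below every CONTROL array, and CPE array 3 came closest. PFN1 fell by 0.73 (SE 0.10, adjusted p = 0.000398), a 1.66-fold difference, and by 0.66 before multiplicative detrending. The fall of PFN1 rests on a single probe, as the other PFN1 probes were not lit on all 8 arrays. In the authors' group means, which are over the whole array, probe A_73_P169007 was 2.52 higher in CPE, the opposite direction to the tested probe. The remaining PFN1 probe, A_73_P494428, was lower in CPE there. The part of local brightness in these whole-array differences was not tested. PFN3, a profilin known from testis, read −1.54, −1.94, −0.95 and −1.82 in CPE and −0.61, −1.07, −0.80 and −1.15 in CONTROL. CPE array 3 lay among the CONTROL arrays, so the groups overlapped. PFN3 fell by 0.65 (SE 0.22, adjusted p = 0.0347), but was not called in 8 of 24 alternatives at the same threshold, 6 of which left out CPE array 1, 2 or 4 or CONTROL array 1, 2 or 3 (changes of −0.71 to −0.53). PFN2 and PFN4 had no lit probe.

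Beta-thymosins keep monomers out of filaments. TMSB4 (thymosin beta 4, transcript NM_001113231) read 5.72, 5.71, 5.89 and 5.65 on the CPE arrays and 5.48, 5.50, 5.43 and 5.56 on the CONTROL arrays. The groups did not overlap, though by a narrow margin. TMSB4 rose by 0.25 (SE 0.08, adjusted p = 0.0290), but was not called in 12 of 25 alternatives at the same threshold. These include each fit without CPE array 1 or CONTROL array 1, 2 or 3 (0.23 to 0.26), quantile normalisation (0.12), no scaling (0.071) and normexp (0.16), and over the whole array the change was −0.87. TMSB4X, listed under another transcript (NM_001002885), had 3 probes, none lit on any CONTROL array. Its brightest probe gave 61185, 105140, 90073 and 66829 units in CPE against 14.0, 10.15, 11.05 and 9.15 in CONTROL, where it was not well above background. That CONTROL reading lay at local brightness percentiles 5.26 to 14.4, against 55.4 to 90.5 in CPE. TMSB4 and TMSB4X are near-identical genes, so their probes may not tell them apart.

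TMSB10 had 4 tested probes with changes from −0.17 to 0.39. The brightest read 8.27, 8.34, 8.30 and 8.28 in CPE and 8.38, 8.43, 8.42 and 8.64 in CONTROL, a change of −0.17 (SE 0.08, adjusted p = 0.11) with groups apart. Probe A_73_106318, which shares 36 bases with it, read 5.997, 6.17, 5.62 and 5.90 in CPE and 5.54, 5.71, 5.56 and 5.30 in CONTROL, a rise of 0.39 (SE 0.13, adjusted p = 0.0365) with groups that overlapped. The other two TMSB10 probes changed by 0.18 each and were not called. With overlapping probes of a transcript on opposite sides of 0, no direction can be given for TMSB10.

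Cofilin severs old filaments. CFL1, the non-muscle cofilin, had 2 tested probes that differed in direction. The brighter read 3.65, 2.77, 3.99 and 3.66 on the CPE arrays and 3.09, 3.08, 3.05 and 2.18 on the CONTROL arrays, a change of 0.67 (SE 0.29, adjusted p = 0.0879). Its lowest reading in each group, on CPE array 2 and CONTROL array 4, came where its local brightness was lowest, at percentiles 52.5 and 78.2 against 92.2 to 94.99 on the other arrays. The dimmer CFL1 probe read 1.30, 1.19, 1.17 and 1.22 in CPE and 1.62, 1.62, 1.64 and 1.77 in CONTROL, groups that were apart, and fell by 0.45 (SE 0.07, adjusted p = 0.00150). Another CFL1 probe was well above background on all 4 CPE arrays and on no CONTROL array, with processed signals of 50.3, 79.6, 34.2 and 35.0 units in CPE and 25.9, 29.4, 36.5 and 41.7 in CONTROL. These groups overlapped. The mean level of this probe was −3.72 in CPE and −4.41 in CONTROL. Its whole-array change was −0.43, on a scale where the median of all tested genes was −1.03. No direction is given for this probe. CFL2, the muscle form, was lit but well above background on 3 arrays of each group.

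Coronins bind filaments and bring cofilin to old ones, except CORO7, which works at the Golgi. CORO7 read 3.56, 3.88, 3.76 and 3.59 on the CPE arrays and 4.39, 4.54, 4.46 and 4.17 on the CONTROL arrays. Every CPE array was lower than every CONTROL array. CORO7 fell by 0.69 (SE 0.11, adjusted p = 0.00117), a 1.62-fold difference, and its other tested probes fell by 0.86 (SE 0.12, adjusted p = 0.000447) and 0.51 (SE 0.08, adjusted p = 0.00122). It is the one member with 3 tested probes all called in the same direction, and the other two probes are shown for that reason.
CORO7 probe A_73_P385621: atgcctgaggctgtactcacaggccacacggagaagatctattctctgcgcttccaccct
CORO7 probe A_73_P399256: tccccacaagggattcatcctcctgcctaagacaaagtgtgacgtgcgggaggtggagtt
Before multiplicative detrending all 3 probes were again lower, by 0.63, 0.68 and 0.40.

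CORO1C, a widely expressed coronin, read −1.38, −1.30, −0.76 and −1.38 in CPE and −1.77, −1.63, −1.59 and −1.51 in CONTROL. The groups did not overlap, and CPE array 3 stood above the other CPE arrays. CORO1C rose by 0.42 (SE 0.15, adjusted p = 0.0409), but was not called in 11 of 25 alternatives at the same threshold, among them the fits without CPE array 2 or any of the CONTROL arrays (0.37 to 0.45). The change was 0.27 (adjusted p = 0.0175) without CPE array 3, 0.24 with no scaling, 0.26 with normexp and −0.71 over the whole array. Its other probe changed by 0.30 (adjusted p = 0.0939). CORO2A had 2 tested probes in opposite directions. The brighter read 0.49, 0.47 and 0.56 on 3 CPE arrays and 0.56, 0.69 and 0.73 on 3 CONTROL arrays, having no value on CPE array 3 and CONTROL array 4, and changed by −0.15 (SE 0.10, adjusted p = 0.233, n = 3 per group). The dimmer read −1.68, −1.41, −2.13 and −1.79 in CPE and −2.15, −2.27, −2.64 and −2.56 in CONTROL, groups that were apart, and rose by 0.65 (SE 0.17, adjusted p = 0.0120). CORO1A, the coronin of leukocytes, had a single probe, lit on no array. CORO1B was lit but well above background on 4 CPE and 3 CONTROL arrays.

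ACTR1B, the centractin of the dynactin complex that moves cargo along microtubules, read 1.504, 1.52, 0.57 and 1.38 on the CPE arrays and 1.94, 1.86, 1.85 and 2.25 on the CONTROL arrays. The groups did not overlap, and CPE array 3 was well below the other CPE arrays. ACTR1B fell by 0.73 (SE 0.21, adjusted p = 0.0200), and by 0.41 (SE 0.12, adjusted p = 0.0113) before multiplicative detrending, 0.45 with array weights and 0.21 (adjusted p = 0.0104) with local centring. It was not called in 2 of 24 alternatives at the same threshold, with no scaling (−0.91, adjusted p = 0.0616) and without CONTROL array 4 (−0.64, adjusted p = 0.0546). ACTR8, a nuclear actin-related protein of a chromatin remodeller, was not called at its brighter probe (0.12, adjusted p = 0.299) and was higher at the other (0.35, adjusted p = 0.0282). ACTN1, a filament cross-linker, read −1.84, −1.79, −2.62 and −1.90 in CPE and between −1.89 and −1.83 in CONTROL. Its change was −0.18 (SE 0.17, adjusted p = 0.421), and 0.015 without CPE array 3.

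Of 12 members with at least 2 tested probes, 7 had all probes on the same side of 0 and 5 did not (ACTG1, ACTR2, CFL1, CORO2A and TMSB10). The GC content of the probe was between 30% and 55% (median 45%) in the 9 probes called higher, between 43.3% and 60% (median 55%) in the 11 called lower, and between 35% and 55% (median 41.7%) in the 20 not called. Some of these probes belong to the same gene, such as the 3 CORO7 probes called lower, each at 55%. GC content by call was not compared over all tested probes, so nothing particular to the members is shown.

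Among the 43 members with no commonly lit probe are several with central roles in leukocytes: ACTB, ARPC3, ARPC4, ARPC5, CAPZA1, CAPZA2, CAPZB, CDC42, CORO1A, DOCK8 and TMSB4X. The others include ACTA1, ACTA2, ACTG2, ACTN3, ACTN4, ACTR10, ACTR1A, ACTR3B, ACTR6, ACTRT1, ACTRT2, ARPC1A, ARPC5L, CAPZA3, CDC42BPA, CDC42BPG, CDC42EP1, CDC42EP2, CDC42EP3, CDC42EP4, CDC42EP5, CDC42SE2, CORO2B, CORO6, DOCK6, ELMO3, PFN2, PFN4, WASF1, WASF2 and WASF3. Capping protein, which closes the growing ends of filaments, had no probe lit on all 8 arrays and was not tested, and the diaphanous formins DIAPH2 and DIAPH3, which grow unbranched filaments, and ACTN2, the muscle cross-linker, were lit but dim. Of the 96 probes of the 43 unlit genes, 86 were lit on no CONTROL array, 53 on no array of either group, and 32 were well above background on no array.

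Beside ACTB and TMSB4X, the unlit members with the brightest probes were CORO2B, CDC42EP2, WASF2 and ACTR10. CDC42EP2, an effector that CDC42 binds, gave 11367, 441, 83405 and 955 units on the CPE arrays and 7514, 6991, 7099 and 703 on the CONTROL arrays. The CPE arrays spread far more widely than the CONTROL arrays. Its local brightness was at percentiles 37.4, 20.3, 29.1 and 30.8 in CPE and 50.3, 52.0, 50.5 and 61.8 in CONTROL. The highest signal in CPE (array 3) and the lowest in CONTROL (array 4) thus did not follow local brightness. WASF2, the main WAVE protein of leukocytes, gave 5015, 1103, 2687 and 4434 units in CPE and 2234, 992, 2015 and 605 in CONTROL. Its lowest CPE reading came on array 2, where local brightness was at percentile 30.6 against 76.3 to 83.0 on the other CPE arrays. Its lowest CONTROL reading came on array 4, where local brightness was highest, at percentile 63.4 against 52.3 to 61.2 on the other CONTROL arrays. ACTR10, a dynactin subunit, gave 1451, 836, 1018 and 1325 units in CPE and 1436, 1376, 1419 and 944 in CONTROL, groups that overlapped. CORO2B, a neuronal coronin, gave 6455, 15541, 13998 and 5495 units in CPE and 2512, 1664, 2136 and 1536 in CONTROL. Its local brightness was at percentiles 24.1 to 61.01 in CPE and 22.7 to 30.9 in CONTROL.

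Members that read as present in CPE alone lay almost wholly in areas that were dark on the CONTROL slide. There were 19 member probes that were well above background on all 4 CPE arrays and on no CONTROL array, of which 17 were lit on no CONTROL array and 1 was lit on all 8 arrays. No member probe was well above background on all 4 CONTROL arrays and on no CPE array. Among member probes well above background on all 8 arrays, the whole-array change had a median of −1.005 over the 39 with every spot lit, and of 0.060 over the 14 others, with a range from −1.12 to 5.23. The authors' deposited table of group means holds these whole-array differences: its CPE minus CONTROL values lay within 0.00191 of them for every member probe.

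Of 108 other genes of the actin pathway, 104 were on the array, 40 were tested, and 9 were higher, 10 lower and 21 not called, again near the 24.3% and 22.8% of all genes, with a median change of −0.073. The 4 largest rises were in TLN1, the talin that links integrins to actin (1.23, SE 0.09, adjusted p = 1.93e-05), MYL12B, a myosin light chain (1.06, SE 0.12, adjusted p = 0.000172), BRK1, a subunit of the WAVE complex (1.02, SE 0.27, adjusted p = 0.0142), and the tropomyosin TPM3 (0.66, SE 0.09, adjusted p = 0.000474). Of the 4 largest falls, 3 were in RHOB, an early-response small GTPase (−1.35, SE 0.11, adjusted p = 2.77e-05), FMNL3, a formin (−0.88, SE 0.20, adjusted p = 0.00585), and the tropomyosin TPM1 (−0.77, SE 0.20, adjusted p = 0.0133). RAC1, the GTPase that ELMO and DOCK proteins serve, was 0.39 higher (SE 0.08, adjusted p = 0.00459). RHOA changed by −0.03 (adjusted p = 0.817). RAC1 and RHOA were chosen after their values had been seen.

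Some markers of blood cell types differed between the groups and others did not. Over all tested genes 24.3% were higher and 22.8% lower. Summed levels below add the signals of a list before the log2, so they follow its brightest markers most. Of 11 tested T cell markers, 8 were higher and the other 3 were not called, and their summed level was 6.51 to 6.88 in CPE and 6.02 to 6.12 in CONTROL. Of 2 tested monocyte markers, CD14 was not called and CSF1R was lower, with a summed level of 2.09 to 2.92 in CPE and 3.25 to 3.61 in CONTROL. Neutrophil markers were split among 6 tested, with BPI and S100A12 higher, and CSF3R and the probe listed for both CXCR1 and CXCR2 lower. The deposited table and RefSeq name that probe differently, so it does not show that both genes were lower. The summed level of the 5 with values on all arrays was 6.75 to 6.91 in CPE and 6.70 to 6.85 in CONTROL. That sum counts the probe listed for CXCR1 and CXCR2 under both names, and follows S100A12 most (mean 6.59 in CPE and 6.34 in CONTROL). Of 4 NK cell markers 2 were higher and 1 lower, with a summed level of 5.09 to 5.28 in CPE and 4.10 to 4.32 in CONTROL. The NK cell sum follows GNLY most (mean 5.04 in CPE and 3.78 in CONTROL). The 5 tested B cell markers and the 2 tested red cell markers were not called, at summed levels of 5.06 to 5.36 and 6.69 to 7.37 in CPE and 5.14 to 5.27 and 6.63 to 6.94 in CONTROL, and PPBP, the single platelet marker tested, was 1.47 higher (0.47 to 0.96 in CPE and −0.95 to −0.59 in CONTROL). KLRF1, LTF, GP5 and CA1 were among the markers lit but well above background on no array. The part of these markers in the changes of ELMO1, WASL, PFN1 and CORO7 was not tested.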

How the data were processed

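Whole-blood RNA of 4 CPE and 4 CONTROL samples was hybridised to 1-colour arrays of 45220 spots. Per the file headers, the authors made signal intensity values in Agilent Feature Extraction 10.10.1.1, with background subtraction and spatial detrending, and on CPE array 3 alone multiplicative detrending too. The deposited series table holds log2 group means by the authors. It was used to name probes and as a check of direction.

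Members, gene lists, lit area and tests were chosen with earlier results of these data known. Control spots were dropped, as were the 12 to 73 spots an array that the software set aside as outliers, and no spot was saturated. Log2 processed signal minus each array's 75th percentile over lit probes was tested with limma 3.58.1 in R 4.3.3 (lmFit, eBayes, two-sided, Benjamini-Hochberg over 7197 probes), and the code was tested on simulated data. That percentile was 399 to 749 intensity units in CPE and 585 to 766 in CONTROL; 62.4% to 72.5% and 58.2% to 62.8% of spots in the common lit area were well above background. The number of arrays limits the precision. No mean-signal column was used, so normexp (offset 50) was run on median spot and median background intensity.

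Of 203 member probes, 182 matched RefSeq by transcript accession, and 5 were named otherwise there (WASH1 as WASHC1; CDC42BPA as LOC787410). The files' build differs from that table's, so no coordinates are given.

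Values on every array are given for called members and those with probes of opposite sign; others are named with their change. For members with no lit probe this covers ACTB, TMSB4X and the 4 next brightest, and of other pathway genes the 4 largest rises and falls are named. A few items that these rules select are not reported here. CDC42SE1, ACTN1, the ARPC2 pair, the dimmer ELMO1 and WASL probes, untested PFN1 probes and printed sequences were chosen after their values were seen. Alternatives covered scaling, background, filters, lit area, variance, the replicate block, thresholds and each array left out. The signal before multiplicative detrending was added after seeing the data.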

Additional observations from a re-analysis of the deposited data

Results flagged for a closer look

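Among 78 groups of 4 arrays, formed by the 40 tested member probes in CPE and in CONTROL where all arrays gave a value, 15 had 1 array that stood apart from the other three, as judged by its gap to the nearest over the whole range (Dixon's criterion). Chance flags about 1 in 20 groups. All 15 lay on CONTROL array 4 (8) or CPE array 3 (7).

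On CONTROL array 4 the separate levels were −0.93 for the dimmer ACTR2 probe (others −0.36 to −0.25), −3.23 for CDC42SE1 (others −1.19 to −1.08), −0.10 for ELMO1 (others −0.31 to −0.29), 2.45 for WASH1 (others 2.54 to 2.55) and 8.16 for the brighter ACTG1 probe (others 7.85 to 7.90). The brightest TMSB10 probe was at 8.64 there (others 8.38 to 8.43), and the CFL1 probes were at 2.18 (others 3.05 to 3.09) and 1.77 (others 1.62 to 1.64).

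On CPE array 3, the array with multiplicative detrending, the separate levels were 3.24 for ARPC2 probe A_73_P459401 (others 4.04 to 4.14), −0.66 for the dimmer DOCK11 probe (others −1.31 to −1.23), 7.61 for the brighter ACTG1 probe (others 7.71 to 7.73) and −2.62 for ACTN1 (others −1.90 to −1.79). CORO1C was at −0.76 there (others −1.38 to −1.30), ACTR1B at 0.57 (others 1.38 to 1.52) and ACTR8 at 1.31 (others 1.04 to 1.08).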

How the results depend on the processing

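Members called higher (3) became 0 with scaling over probes well above background, with no scaling, with normexp, at a limit of 2 log2 units, at an adjusted p under 0.01 and with a minimum change of 0.5, where limma's unadjusted p was under 0.05 in 0 to 4 members. They became 1 under quantile normalisation and with no filter on dim probes, 5 at a limit of 1 log2 unit, with array weights and with the mean over probes, 6 before multiplicative detrending and 9 with local centring. Members called lower (8) became 5 with no scaling and with normexp, 4 at an adjusted p under 0.01 and 2 with the minimum change. Other pathway genes called higher (9) became 3 with no scaling, 5 with normexp and at an adjusted p under 0.01, and 2 over the whole array and with the minimum change. Those called lower (10) became 5 with no scaling and at an adjusted p under 0.01, 4 with normexp, 6 at a limit of 1, 17 over the whole array and 1 with the minimum change. Leaving out each array gave 0 to 3 members higher and 5 to 7 lower, and 6 to 9 and 8 to 12 other genes. Shares over all tested genes moved too, from 24.3% higher and 22.8% lower to 37.3% and 33.9% with array weights, 16.9% and 25.1% with no filter, 26.5% and 24.3% at a limit of 1, 21.6% and 23% at a limit of 2, 1.92% and 33.8% over the whole array, 14.3% and 15.3% at an adjusted p under 0.01, and 3.05% and 4.52% with the minimum change. The stricter thresholds lower counts by their construction; the cause of the other moves was not tested. The median of all tested genes was 0.027, and became −0.15 with no scaling, 0.14 with local centring, 0.15 before multiplicative detrending and −1.03 over the whole array.

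Signs turned over the whole array for ACTR3 (−0.67), ACTR8 (−1.005), ARPC1B (−0.86), ARPC2 (−0.95), CDC42SE1 (−0.015), CFL1 (−0.46), CORO1C (−0.71), DOCK11 (−0.95), ELMO2 (−1.10) and TMSB4 (−0.87), all above −1.03 except ELMO2. They turned with no scaling for ACTR8 (−0.061), ARPC2 (−0.0011), DOCK11 (−0.0044) and ELMO2 (−0.15), with scaling over bright probes for ELMO2 (−0.034), and with normexp for ACTN1 (0.068). Local centring turned ACTN1 (0.12), TMSB10 (0.12) and WASH1 (0.11), array weights turned ARPC1B (−0.18) and DOCK10 (0.023), and the mean over probes turned ACTG1 (0.15), ACTR2 (0.012), CORO2A (0.32) and TMSB10 (0.15). A limit of 1, which tests another probe of some genes, turned CFL1 (−0.42), CORO2A (0.68), TMSB10 (0.21) and DOCK10 (0.015), and a limit of 2 turned ELMO2 (−0.0061). Before multiplicative detrending ACTN1 (0.12) and DOCK10 (0.16) turned. With each array left out, ACTN1 ran from −0.26 to 0.015, DOCK10 from −0.094 to 0.060, ELMO2 from −0.00090 to 0.089 and WASH1 from −0.17 to 0.015. The cause was not tested.

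With the replicate number as a block, 3 members were higher and 7 lower, and 9 and 10 of the other genes; ACTG1 (−0.25) and TMSB4 (0.25) were not called and CDC42SE1 (1.11) was. Same-numbered arrays of the groups did not all deviate together (correlations of −0.12, −0.17, 0.29 and 0.41), so the numbers were taken not to pair arrays.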
